A study of Drosophila melanogaster with 15 samples.

Results

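The comparison described here is between *foxo* mutant and w1118 *Drosophila* females in low oxygen. It rests on 8 of the 15 RNA libraries of the study, all from flies held for 16 h in 1% oxygen, namely 4 of w1118 and 4 of the mutant, picked by genotype and treatment as labelled. w1118 is a laboratory strain that lacks the eye color gene *white*, carries normal *foxo* and served as the control. The mutants carry *foxo*Δ94, a null allele that the study kept over the balancer chromosome TM6B, so FOXO was missing from the whole body and not from a single tissue. Each library holds whole-body RNA of 5 mated females of about 7 days. The other 7 libraries come from the same genotypes in ambient air (normoxia, 3 of w1118 and 4 of the mutant). They show which differences were also there without hypoxia. They were also fitted in 1 model with the 8 hypoxia libraries, and so enter the filter, the standard errors and the p-values given for hypoxia. The sources used here do not state whether the 2 lines share a genetic background, so *foxo* and other differences between the lines cannot be told apart. Levels are TPM, the abundance of a transcript relative to all transcripts of its library and corrected for length, summed per gene. A difference is the mutant mean minus the w1118 mean of log2(TPM + 1), with its standard error (SE) from limma, and understates the fold of genes at a few TPM.

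FOXO is the transcription factor at the end of the insulin pathway. When insulin signaling is high, the kinase Akt keeps FOXO in the cytoplasm. Starvation, infection and other stresses release it into the nucleus, where it turns on genes of growth restraint, sugar and lipid use, repair and immunity. In low oxygen flies also use the hypoxia-inducible factor (HIF), made of Sima and Tango, which turns on genes such as lactate dehydrogenase. The fat body, which does the work of liver and adipose tissue, and the gut are the main sites of FOXO function in adult metabolism.

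The *foxo* transcript was at 18.3, 32.8, 28.1 and 39.9 TPM in w1118 hypoxia libraries 1 to 4 and at 0.088, 0.039, 0.0145 and 0.042 TPM in mutant hypoxia libraries 1 to 4. All mutant libraries were thus far below every control library, as the labels say. Of 10 male genes, 9 were under 1 TPM in every library, and of 6 larval genes 1, *Lsp1beta*, reached 1 TPM. *Lsp1beta* was under 1 TPM in w1118 hypoxia, at 2.69 to 13.1 TPM in mutant hypoxia (2.34 ± 0.68, adjusted p = 0.027) and at up to 44.6 TPM in normoxia. Summed markers of the eye (999 to 1346 TPM in w1118, 1086 to 1247 TPM in the mutant) and ovary (960 to 1647 and 690 to 1820 TPM) overlapped between the genotypes in hypoxia. Those of the fat body (2468 to 5107 and 8792 to 12396 TPM) and midgut (1002 to 1571 and 3006 to 4681 TPM) did not overlap, and 6 of 8 fat body and 5 of 8 midgut markers tested were higher in the mutant. Most of these markers are yolk, lipid or digestive genes described below. Of the others, *Mur29B* of the midgut was lower (−2.46 ± 0.46, adjusted p = 0.0012), and the other 2 of each list did not pass. In whole flies, fewer cells of a type and less RNA per cell cannot be told apart. A few libraries stood apart from the rest of their group. The median-of-ratios scaling factor, which follows the level of the typical gene, was 0.886 in w1118 hypoxia 1 against 1.13 to 1.29 in the other 3, and 1.26 in mutant hypoxia 4 against 0.717 to 0.954 in the other 3. The slope of level on transcript length, which RNA quality and library preparation can move, was −0.176 in w1118 hypoxia 1 and −0.221 in mutant hypoxia 2, against −0.109 to 0.046 in the other 6. Counts without the first 2 of these libraries, and with the slope as a covariate, are given next.

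In hypoxia, 711 of 10288 genes tested were called higher in *foxo* mutants than in w1118 (6.91%) and 755 were called lower (7.34%), at an adjusted p under 0.05 by limma and over 1.5-fold. The groups did not overlap in 618 of the 711 and 610 of the 755, against 7.67% and 8.49% of all genes tested (16.2% in either direction). This separation is read from the same values as the calls and is a description. Differences over 4-fold were found in 119 of the higher and 116 of the lower genes. The median of all genes was itself shifted by −0.22 on the log2 scale in TPM. When the libraries were scaled by median of ratios the median gene was at 0.00, and 992 genes were called higher and 449 lower, so that lower genes made up 31.2% of the calls instead of 51.5%. Under both scalings 709 higher and 447 lower genes were called, and no called gene changed direction. The number of lower genes also rested on single libraries. It was 2103 without mutant hypoxia 4, and 3731 without both mutant hypoxia 4 and w1118 hypoxia 1, while the number of higher genes was then 803 and 801. Without both libraries the median of all genes was −0.45 in place of −0.22, and no scaling was applied there. With the length slope as a covariate 819 genes were higher and 650 lower. With only the 8 hypoxia libraries in the model 545 were higher and 481 lower. Called the same way under each of 21 alternatives were 352 higher and 268 lower genes. The bar chart of calls by setting gives each of them.

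**Figure D1:**
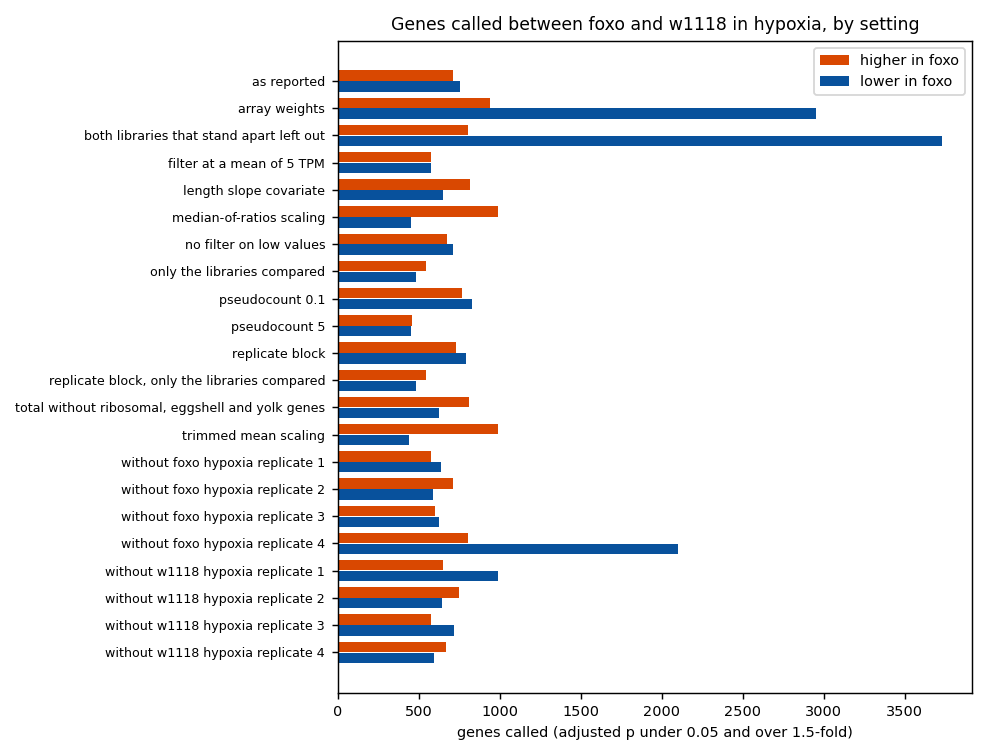
Number of genes called higher (orange) and lower (blue) in *foxo* mutants than in w1118 in hypoxia, for the comparison as reported and for each alternative. The higher genes number 459 to 992 in all settings, while the lower genes range from 437 to 3731, with the largest numbers where mutant hypoxia 4 is left out or the libraries are weighted.

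Many of these differences were also present in normoxia. The means compared there come from other libraries, but the spread behind both tests was estimated from all 15 libraries together. Of the 711 higher genes, 316 (44.4%) were also called higher in normoxia, where 5.14% of all genes were. Of the 755 lower genes, 207 (27.4%) were also called lower, against 2.84%. The sign was the same in 91.1% of the higher and 79.7% of the lower genes. Across genes the 2 differences had a Pearson r of 0.67 and a Spearman rho of 0.55, which is a description, since genes are not replicates and share libraries. The genotype difference itself differed between the oxygen levels, by the interaction term at an adjusted p under 0.05, in 96 of the higher (13.5%) and 128 of the lower genes (17.0%), against 2.61% of all genes. The interaction reuses the hypoxia values by which these genes were called. A share above that of all genes was therefore favored in advance and is a description. Without mutant hypoxia 4 and w1118 hypoxia 1, the interaction called 299 genes higher and 3084 lower in place of 110 (1.07%) and 159 (1.55%). Only 3 genes called higher in hypoxia were called lower in normoxia, and 6 the reverse.

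**Figure D2:**
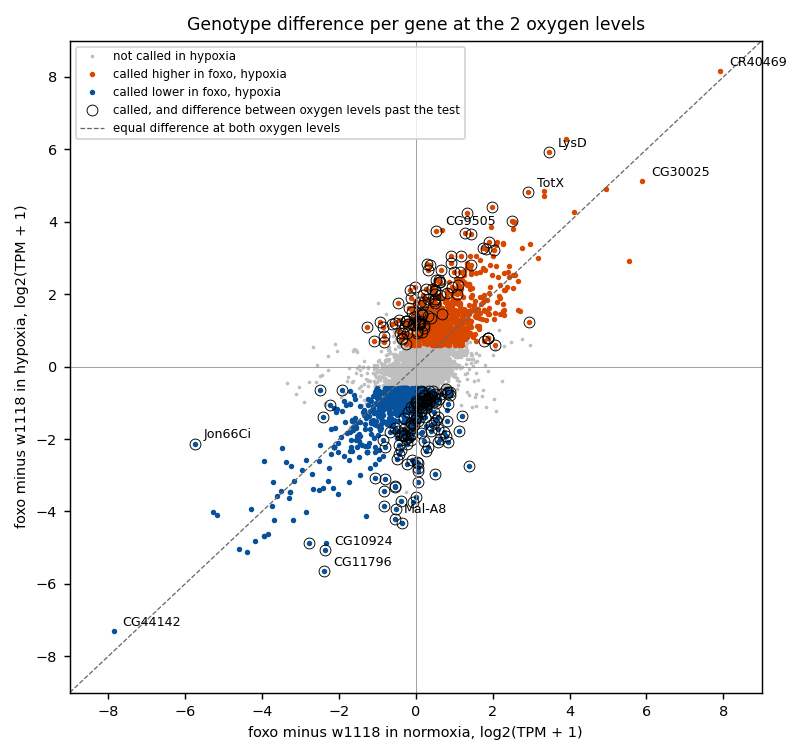
Difference between *foxo* mutants and w1118 for 10288 genes in normoxia (x axis) and hypoxia (y axis), as log2(TPM + 1). Orange and blue points are the 711 and 755 genes called in hypoxia, circles mark those of them whose difference also differed between oxygen levels, and the dashed line marks equal differences.

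Genes that FOXO or insulin signaling is known to control differed in both directions. Of 16 such genes tested, 3 were lower and 3 higher in the mutant (18.75% each), where 9.42% of all genes were lower and 7.65% higher by adjusted p alone. The median was −0.31, close to that of all genes. *Thor* encodes 4E-BP, a brake on translation and a classic FOXO target. It was at 573, 1108, 600 and 1017 TPM in w1118 hypoxia 1 to 4 and at 224, 172, 302 and 311 TPM in the mutant, so every mutant library was below every control (−1.68 ± 0.27, adjusted p = 0.00032). In normoxia the 2 genotypes had 204 and 186 TPM, and the genotype difference was larger in hypoxia (interaction −1.59, adjusted p = 0.044). *Ilp6*, the insulin-like peptide of the fat body, was at 11.2, 28.7, 12.7 and 25.8 TPM in w1118 and 3.52, 3.74, 5.36 and 4.17 TPM in the mutant, again with no overlap (−1.89 ± 0.26, adjusted p = 8.5e-05). It too differed more in hypoxia than in normoxia (interaction −1.51, adjusted p = 0.049). Both interactions passed narrowly, and the interaction of single genes, here and below, was not followed over the alternatives. *Sesn*, a stress-induced inhibitor of TOR, had 39.1 to 87.1 TPM in w1118 and 18.7 to 40.9 TPM in the mutant (−1.06 ± 0.25, adjusted p = 0.0084), with mutant hypoxia 4 above w1118 hypoxia 1. *InR*, the insulin receptor, did not pass (3.67 to 12.8 and 3.26 to 6.67 TPM, difference −0.67, adjusted p = 0.15), with 2 of the 4 mutant libraries within the range of the controls. The higher members were *l(2)efl*, a small heat shock protein, with 67.0 to 120 TPM in w1118 and 148 to 337 TPM in the mutant (1.49 ± 0.23, adjusted p = 0.00024), *ImpL2*, a secreted insulin antagonist (1.61, adjusted p = 0.00037), and the insulin-like peptide *Ilp5* (0.66, adjusted p = 0.029, at most 2.30 TPM). In normoxia *l(2)efl* differed by 0.10 (interaction 1.39, adjusted p = 0.041).

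**Figure D3:**
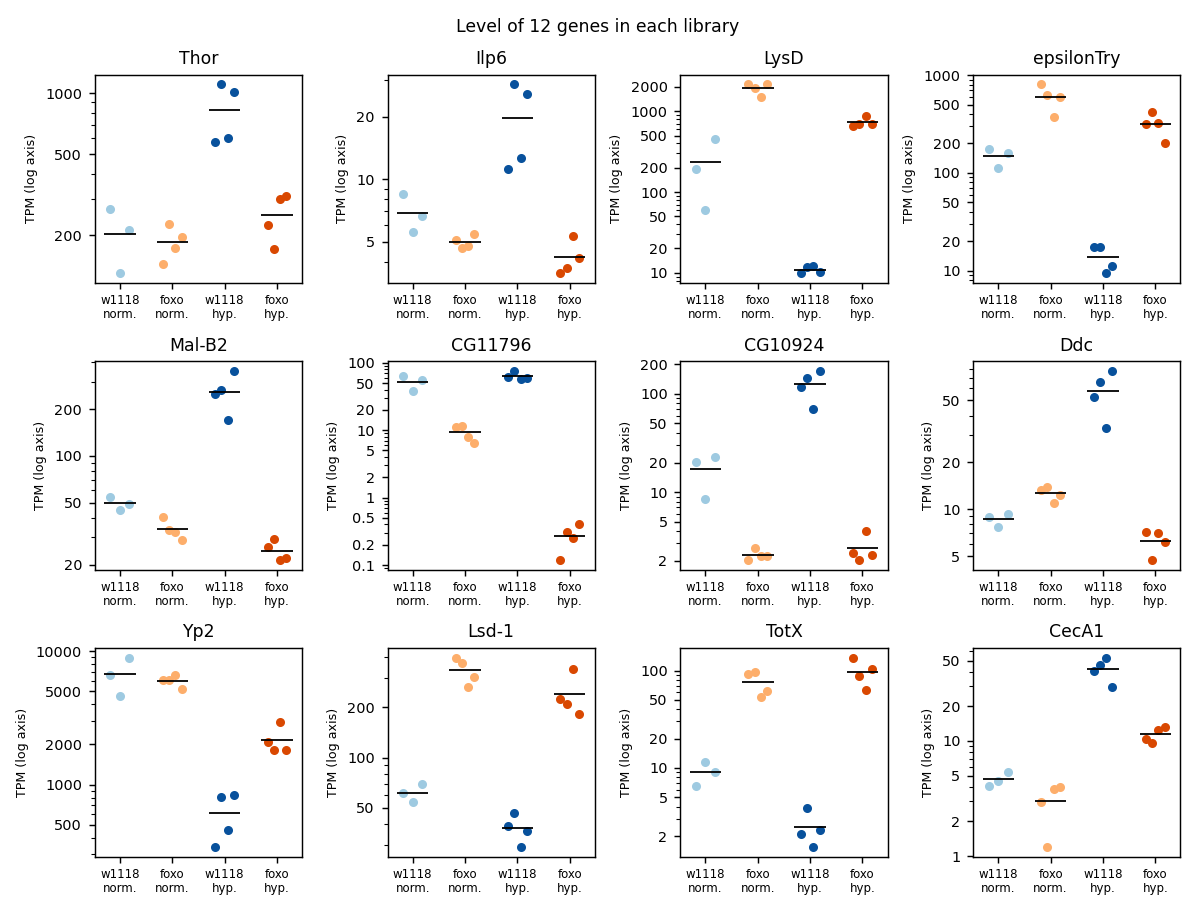
Level of 12 genes in each library (points, TPM on a log axis) with the group mean (bar), for w1118 and *foxo* mutants in normoxia (norm.) and hypoxia (hyp.). In hypoxia the 4 mutant libraries lie wholly above w1118 for *LysD*, *epsilonTry*, *Yp2*, *Lsd-1* and *TotX*, and wholly below for the other 7 genes.

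Of 10 genes tested of oxygen sensing by HIF and its targets, 1 was higher (10%) and 2 were lower (20%). Of all genes, 7.65% were higher and 9.42% lower by adjusted p alone. After median-of-ratios scaling 4 of the 10 were higher and none lower, beside 1245 and 670 of all 10288 genes. *ImpL3*, which is lactate dehydrogenase and a HIF target, was at 233, 274, 206 and 277 TPM in w1118 and 640, 456, 632 and 566 TPM in the mutant. All mutant libraries were above all controls (1.21 ± 0.23, adjusted p = 0.0013), and its normoxic levels were 14.2 and 24.8 TPM. The FGF ligand *bnl*, which guides tracheal branches to tissue short of oxygen, was at 7.74, 23, 7.27 and 18.6 TPM in w1118 and 19.0, 18.3, 28.6 and 32.3 TPM in the mutant. The ranges overlap through w1118 hypoxia 2 and 4, and the difference of 0.87 did not pass (adjusted p = 0.071), but did after scaling (adjusted p = 0.0055, and 0.003 to 0.39 over 21 alternatives). The repressor gene *h*, also induced by hypoxia, had 26.3 to 67.5 TPM in w1118 and 35.3 to 74.1 TPM in the mutant and passed after scaling but not as reported (adjusted p = 0.30 and 0.045, and 0.026 to 0.64 over all alternatives). *Vhl*, part of the ligase that removes HIF in normal oxygen, had 37.5 to 49.2 TPM in w1118 and 23.5 to 31.0 TPM in the mutant (−0.63 ± 0.14, adjusted p = 0.0051, but 0.067 after scaling and 3.3e-05 to 0.17 over all alternatives). The other lower gene listed here was *Hmg-2* (−0.69, adjusted p = 0.039, and 6.5e-05 to 0.17 over all alternatives).

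Trypsins and the related Jonah proteases, digestive enzymes of the midgut, held many genes that were higher in the mutant. Of 16 trypsins tested, 9 were higher and none lower (3 at an unadjusted p under 0.05 by limma), where 7.65% of all genes were higher and 9.42% lower by adjusted p alone, and the median was 1.41. *alphaTry*, the most abundant, was at 510, 683, 451 and 403 TPM in w1118 and 2502, 2918, 2533 and 1830 TPM in the mutant (2.26 ± 0.17, adjusted p = 2.3e-07). *epsilonTry* was at 17.4, 17.4, 9.36 and 11.2 TPM against 320, 422, 324 and 201 TPM (4.42 ± 0.27, adjusted p = 1.8e-08). No mutant library overlapped a control in either gene, and both differences were larger than in normoxia (interaction 1.16 and 2.44, adjusted p = 0.023 and 0.0032). *CG30025*, a further trypsin gene of the same cluster, was at most 1.74 TPM in w1118 and at 47.0 to 71.1 TPM in the mutant, a difference of 5.11, beside 5.89 in normoxia. These genes are close copies of one another, so how reads were divided among them is uncertain. Summed midgut markers, of which *alphaTry* is one, were also higher (1002 to 1571 and 3006 to 4681 TPM), and a change in gut mass was not tested. Summed over the list, trypsins took 0.0814 to 0.126% of all TPM in w1118 and 0.293 to 0.477% in the mutant.

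The Jonah genes, serine proteases of the same tissue, followed with 10 of 16 higher and 1 lower, and a median of 1.13. *Jon25Bi* was at 18.3, 19.8, 32.1 and 30.3 TPM in w1118 and 294, 323, 291 and 203 TPM in the mutant (3.43 ± 0.21, adjusted p = 2e-08), and *Jon25Bii* at 6.24 to 14.8 against 110 to 159 TPM (3.69 ± 0.39, adjusted p = 6.3e-06). The most abundant member that passed, *Jon65Aiv*, had 219 to 470 TPM in w1118 and 582 to 733 TPM in the mutant (1.11 ± 0.17, adjusted p = 0.00028). The lower member was *Jon66Ci*, with 1.14 to 9.87 TPM in w1118 and 0.257 to 0.716 TPM in the mutant (−2.12 ± 0.38, adjusted p = 0.00082). In normoxia it stood at 149 and 1.76 TPM, a wider difference of −5.75 (interaction 3.62, adjusted p = 0.0023). Lysozymes, which in the fly gut digest bacteria, gave 4 of 5 higher and 1 lower, in hypoxia and in normoxia alike. *LysD* was at 9.86, 11.8, 12 and 10.2 TPM in w1118 and 659, 697, 864 and 696 TPM in the mutant (5.93 ± 0.39, adjusted p = 4.5e-08), the largest upward difference among members of the lists. *LysB* (4.85), *LysE* (3.81) and *LysP* (1.92) were higher as well, and *LysX* (−1.46) was lower. The 6 lysozyme genes, near copies of each other, summed to 109 to 227 TPM in w1118 and 982 to 1308 TPM in the mutant, so the groups did not overlap. In normoxia the mean sums were 475 TPM in w1118 and 2672 TPM in the mutant.

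Maltases, which split disaccharides, went the other way. Of 13 genes of maltases, amylases and the related *tobi*, 9 were lower and 2 higher in the mutant (69.2% and 15.4%, against 9.42% and 7.65% of all genes). The median was −1.81, and the counts were the same after scaling. *Mal-B2* was at 249, 264, 169 and 353 TPM in w1118 and 26.1, 29.0, 21.3 and 21.9 TPM in the mutant (−3.31 ± 0.19, adjusted p = 1.1e-08). *Mal-A6* was at 141, 185, 103 and 157 TPM against 13.7, 19.7, 3.04 and 9.90 TPM (−3.74 ± 0.52, adjusted p = 8.6e-05). *Mal-B1* (−3.94) and *Mal-A8* (−4.20) were as far apart, and the groups of all 4 genes were separate. In normoxia, where 5.52% of all genes were higher and 3.14% lower by adjusted p alone, no maltase was lower, and the 4 genes differed by −0.55, −0.06, −0.51 and −0.53. The interaction passed in 6 of the 13 genes, among them these 4 (−2.76, −3.68, −3.43 and −3.67, adjusted p = 9e-05, 0.015, 0.00061 and 0.013). The 2 higher members were the amylase genes *Amy-p* (0.98, adjusted p = 0.0026) and *Amy-d* (0.87, adjusted p = 0.009), which digest starch. Both were also higher in normoxia (1.33 and 0.81, adjusted p = 0.00087 and 0.038), and their interactions did not pass (adjusted p = 0.63 and 0.93). They are near-identical copies and together gave 236 to 343 TPM in w1118 and 354 to 660 TPM in the mutant.

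**Figure D4:**
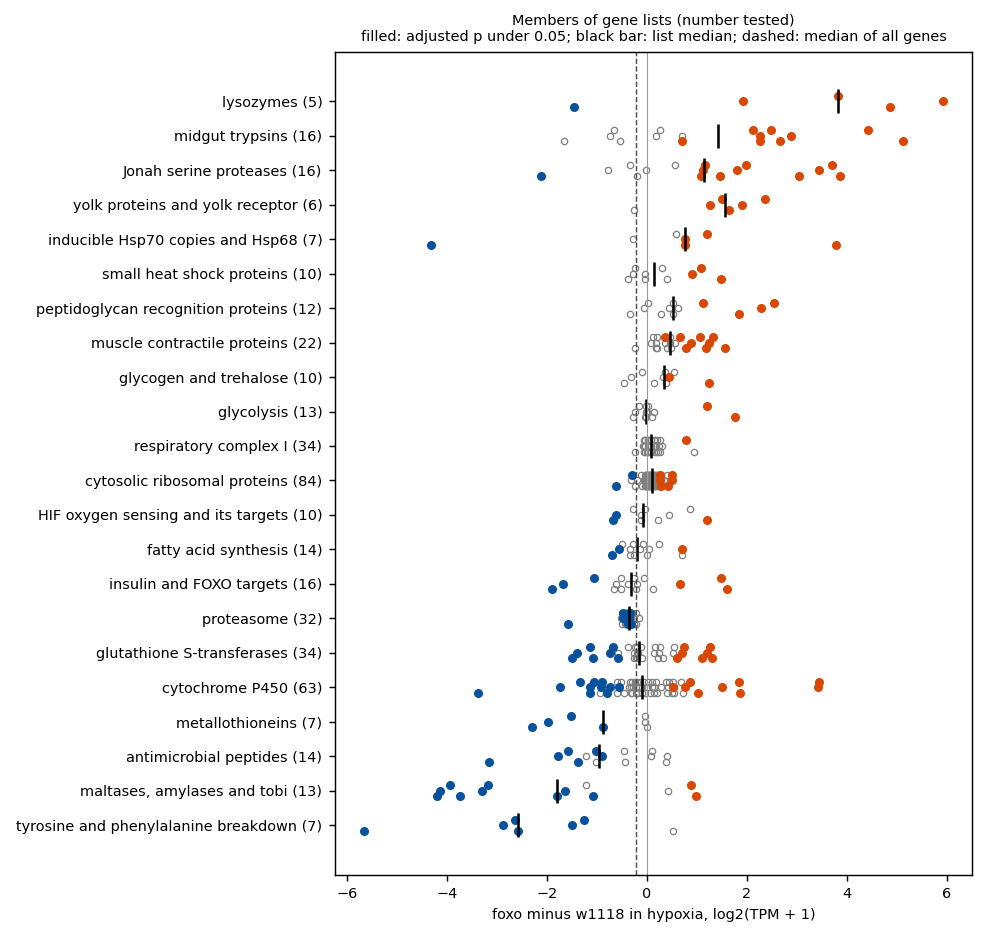
Difference between *foxo* mutants and w1118 in hypoxia for the tested members of 22 gene lists, as log2(TPM + 1). Filled points passed an adjusted p of 0.05 (orange higher, blue lower), black bars are list medians and the dashed line is the median of all genes, −0.22. Lysozymes, trypsins and Jonah proteases lie mostly to the right, maltases and tyrosine breakdown mostly to the left.

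Of 13 glycolysis genes tested, 2 were higher (15.4%, where 7.65% of all genes were), *ImpL3* and the hexokinase gene *Hex-C*, and the other 11 did not pass, while after scaling 5 were higher. *Hex-C* was at 32.8, 28.2, 21.1 and 25.6 TPM in w1118 and 94.5, 109, 112 and 63.4 TPM in the mutant with no overlap (1.76 ± 0.21, adjusted p = 2.4e-05). Of 10 genes of glycogen and trehalose, the storage and blood sugars of flies, 2 were higher (4 after scaling), and none was lower at an unadjusted p under 0.05 by limma either. *Tps1*, which makes trehalose, had 268, 293, 150 and 248 TPM in w1118 and 590, 603, 625 and 415 TPM in the mutant (1.24 ± 0.21, adjusted p = 0.00052), beside 1.30 in normoxia. *AGBE*, the glycogen branching enzyme, was at 210 to 247 and 267 to 378 TPM (0.44 ± 0.12, adjusted p = 0.021). Of 4 gluconeogenesis genes 2 were lower. *CG10924*, which encodes a second phosphoenolpyruvate carboxykinase (Pepck2), was at 118, 144, 70.2 and 172 TPM in w1118 and 2.37, 2.03, 4.00 and 2.28 TPM in the mutant (−5.07 ± 0.30, adjusted p = 1.5e-08). The groups were far apart, and in normoxia the gene stood at 17.1 TPM in w1118 and 2.28 TPM in the mutant (interaction −2.70, adjusted p = 0.0033). *fbp*, fructose-1,6-bisphosphatase, was lower in hypoxia (−0.72, adjusted p = 0.029, but 0.30 after scaling and 6.2e-05 to 0.32 over all alternatives) and higher in normoxia (0.81, adjusted p = 0.039).

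Transcripts of most enzymes that break down phenylalanine and tyrosine were lower in the mutant. Of 7 genes tested, 6 were lower (85.7%, where 9.42% of all genes were) and none higher by limma (1 at an unadjusted p under 0.05). The median was −2.57, and after scaling 6 were lower and *GstZ1*, at 0.52 as reported, was higher. *CG11796*, 4-hydroxyphenylpyruvate dioxygenase, was at 60.8, 75.7, 56.6 and 60.1 TPM in w1118 and 0.118, 0.311, 0.256 and 0.406 TPM in the mutant (−5.66 ± 0.20, adjusted p = 4.7e-11). No mutant library came near a control, and the normoxic levels were 52.3 and 9.25 TPM. *CG1461*, tyrosine aminotransferase, was at 15.1, 19.0, 16.0 and 16.8 TPM against 2.46, 1.35, 0.903 and 1.19 TPM (−2.87 ± 0.22, adjusted p = 2.6e-07), beside 14.8 and 15.4 TPM in normoxia. *Hn*, phenylalanine hydroxylase, was at 67.2, 107, 52.0 and 102 TPM against 11.9, 10.2, 10.1 and 15.6 TPM (−2.64 ± 0.26, adjusted p = 3.3e-06), with 42.4 and 41.6 TPM in normoxia. The interaction passed in all 3 (−3.27, −2.92 and −2.68, adjusted p = 4.4e-05, 0.00021 and 0.0015). The other lower members were *hgo* (−2.57), *Faa* (−1.26) and *GstZ2* (−1.49), all under 8 TPM in w1118. Tyrosine is also the source of dopamine and cuticle pigment. *Ddc*, dopa decarboxylase, was at 52.8, 65.6, 33.3 and 77.5 TPM in w1118 and 7.13, 4.71, 7.08 and 6.14 TPM in the mutant (−2.95 ± 0.22, adjusted p = 1.7e-07), and did not pass in normoxia (8.70 and 12.6 TPM, adjusted p = 0.26, interaction −3.44, adjusted p = 4.4e-05). The gene *b*, aspartate decarboxylase, which supplies beta-alanine for pigment, was higher (7.24 to 11.8 and 31.5 to 53 TPM, 2.03 ± 0.19, adjusted p = 2.1e-06). In methionine metabolism *CG10621*, a homocysteine methyltransferase, was lower (104 to 305 and 18.4 to 48.4 TPM, −2.75 ± 0.39, adjusted p = 0.00011), whereas *Cbs*, cystathionine beta-synthase, was higher (44.0 to 85.0 and 166 to 207 TPM, 1.45 ± 0.23, adjusted p = 0.0003).

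Yolk proteins, made by the fat body and ovary, and some proteins of lipid storage and transport were higher. Of 6 genes tested in the yolk list, 5 were higher and none lower, also at an unadjusted p under 0.05 by limma, with a median of 1.57. Summed fat body markers, of which the yolk genes are part, were higher as well, and their part in this was not tested. *Yp2* was at 340, 811, 453 and 830 TPM in w1118 and 2090, 1802, 2969 and 1802 TPM in the mutant (1.90 ± 0.27, adjusted p = 0.00012). *Yp1* (1.5, adjusted p = 0.00071) and *Yp3* (1.27, adjusted p = 0.00021) were separate between the groups as well. Normoxic levels of the 3 yolk proteins were 6742 to 7404 TPM in w1118 and 5993 to 7470 TPM in the mutant, and none passed there. The interaction passed for *Yp2* (2.02, adjusted p = 0.011) and *Yp3* (1.15, adjusted p = 0.044). The list also holds *fon*, a clotting protein of the hemolymph (16.1 to 26.4 and 39.4 to 88.1 TPM, 1.63 ± 0.23, adjusted p = 0.00011), and *fit*, a satiety signal of the fat body (2.36, adjusted p = 0.0028). The yolk receptor of the ovary, *yl*, did not pass. *Lsd-1*, a perilipin on lipid droplets, was at 38.9, 46.6, 29.2 and 36.6 TPM in w1118 and 225, 210, 339 and 182 TPM in the mutant (2.61 ± 0.19, adjusted p = 1.7e-07), beside 2.41 in normoxia. *apolpp*, the main lipoprotein of the hemolymph, was at 8.09 to 33.5 and 45.4 to 57.5 TPM (1.76 ± 0.32, adjusted p = 0.001). Genes of lipid droplets and lipases gave 3 of 12 higher and 3 lower (25% each, against 7.65% and 9.42% of all genes). *CG6283*, a gene of the lipase family, was lower (11.9 to 37.3 and 0.717 to 1.26 TPM, −3.84 ± 0.31, adjusted p = 3.6e-07). Its relative *CG6295* was higher, at 34.1, 29.0, 19.7 and 30.8 TPM in w1118 and 151, 137, 111 and 124 TPM in the mutant with no overlap (2.18 ± 0.22, adjusted p = 4e-06). The lipocalin *GLaz* was at 32.1, 32.7, 35.1 and 33.9 TPM in w1118 and 14.1, 12.9, 14.2 and 20.7 TPM in the mutant, again separate (−1.08 ± 0.15, adjusted p = 7.7e-05), and was also lower in normoxia (−1.11). Of 14 genes of fatty acid synthesis, 1 was higher and 2 were lower in hypoxia (7.14% and 14.3%, against 7.65% and 9.42% of all genes). The lower ones, *AcCoAS* (−0.69) and *Men* (−0.57), did not pass after scaling (adjusted p over all alternatives 8.6e-05 to 0.25 and 0.00053 to 0.45). In normoxia 6 of these 14 were higher, *AcCoAS* (0.84) and *Men* (0.79) among them, and the interaction passed for both (−1.53 and −1.36, adjusted p = 0.0052 and 0.012). Of eggshell genes, none of 13 chorion and 9 vitelline membrane genes passed, and none was under an unadjusted p of 0.05 by limma.

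Antimicrobial peptides, the secreted end products of the IMD and Toll pathways, were lower where they differed. Of 14 tested, 6 were lower (42.9%, where 9.42% of all genes were) and none higher by limma, also at an unadjusted p under 0.05. After scaling 4 were lower, and the median as reported was −0.96. In normoxia too, 6 of the 14 were lower and none higher, where 3.14% of all genes were lower and 5.52% higher. Summed over the list, their share of all TPM in hypoxia overlapped between the genotypes (0.334% in w1118 and 0.252% in the mutant, exact permutation p = 0.4). *AttD* was at 18.9, 15.3, 23.9 and 12.7 TPM in w1118 and 1.34, 1.31, 0.904 and 0.714 TPM in the mutant (−3.15 ± 0.28, adjusted p = 1.1e-06). It was also lower in normoxia (−2.29, adjusted p = 0.00013), and the interaction did not pass (adjusted p = 0.41). *CecA1* was at 41.0, 46.0, 52.9 and 29.6 TPM against 10.4, 9.70, 12.3 and 13.2 TPM (−1.79 ± 0.25, adjusted p = 9.4e-05), and *CecA2* at 25.6, 24.9, 19.5 and 17.4 TPM against 5.23, 4.24, 16.5 and 4.71 TPM (−1.58 ± 0.32, adjusted p = 0.0026), where mutant hypoxia 3 stood above the others. *Dro* was at 132, 431, 191 and 186 TPM in w1118 and 75.2, 70.9, 114 and 70.3 TPM in the mutant (−1.38 ± 0.32, adjusted p = 0.007), with 15.2 and 21.7 TPM in normoxia (interaction −1.96, adjusted p = 0.04). *AttB* (−0.89, adjusted p = 0.034, but 0.26 after scaling and 0.0038 to 0.71 over all alternatives) and *AttA* (0.38, adjusted p = 0.34) are near copies. Their sum was 101 to 250 TPM in w1118 and 86.7 to 155 TPM in the mutant, which overlap. *Mtk*, in contrast, was at 524 to 1400 and 264 to 1019 TPM and did not pass (adjusted p = 0.39), although in normoxia it was far lower in the mutant (606 and 56.7 TPM, −3.34, interaction 2.88, adjusted p = 0.0085). *Rel*, the NF-κB factor of the IMD pathway, was at 30.0 to 65.9 TPM in w1118 and 20.4 to 30.3 TPM in the mutant (−0.79 ± 0.24, adjusted p = 0.034, and 9.7e-06 to 0.12 over all alternatives), with mutant hypoxia 4 just inside the range of the controls. The receptors and enzymes that handle bacterial peptidoglycan were higher where they differed. Of these, 4 of 12 were higher (33.3%, where 7.65% of all genes were) and none lower, also at an unadjusted p under 0.05. *PGRP-SC2*, an amidase that damps the immune response of the gut, was at 14.5, 16.4, 22.6 and 14.6 TPM in w1118 and 142, 65.6, 61.6 and 92.4 TPM in the mutant (2.28 ± 0.26, adjusted p = 1.4e-05). *PGRP-SC1a* (2.54), *PGRP-SC1b* (1.84) and the Toll pathway receptor *PGRP-SA* (1.11) were the others. *SPE*, the protease that activates the Toll ligand Spätzle, was at 17.3, 18.2, 13.1 and 15.7 TPM against 104, 124, 84.5 and 54.4 TPM (2.39 ± 0.22, adjusted p = 1.9e-06), and differed more than in normoxia (interaction 1.78, adjusted p = 0.0078). The serpin *nec*, which holds the Toll pathway in check, was at 16.0 to 33.8 and 34.3 to 59.6 TPM (0.89 ± 0.23, adjusted p = 0.015).

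The Turandot genes, secreted stress proteins, split. *TotX* was at 2.08, 3.91, 1.54 and 2.33 TPM in w1118 and 135, 86.9, 62.6 and 104 TPM in the mutant (4.81 ± 0.27, adjusted p = 1.1e-08), and differed less in normoxia (9.07 and 75.9 TPM, interaction 1.89, adjusted p = 0.018). *TotA* was at 60.6, 180, 54.1 and 107 TPM against 30.6, 35.1, 31.2 and 32.5 TPM (−1.44 ± 0.32, adjusted p = 0.0045) and *TotM* at 110, 218, 40.7 and 125 TPM against 27.5, 62.9, 33.3 and 13.5 TPM (−1.79 ± 0.48, adjusted p = 0.016), so both were lower in the mutant, *TotM* with some overlap and no longer after scaling (adjusted p = 0.071, and 2.4e-05 to 0.077 over all alternatives). The JAK-STAT feedback inhibitor *Socs36E* was at 35.3 to 53.5 and 76.8 to 114 TPM (1.01 ± 0.19, adjusted p = 0.0013), beside 6.11 and 6.83 TPM in normoxia.

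Heat shock genes of the inducible Hsp70 family were higher as a sum. The 6 Hsp70 copies together gave 484, 551, 420 and 481 TPM in w1118 hypoxia 1 to 4 and 782, 572, 945 and 848 TPM in the mutant, with no overlap (exact permutation test, two-sided, p = 0.0286, the smallest that 4 against 4 libraries allow). In normoxia the sums were 16.8 and 13.8 TPM. Copies of this family share most of their sequence, and single values depend on how reads were divided among them. *Hsp70Ba* was listed at 11.9 to 29.0 TPM in w1118 and at most 0.153 TPM in the mutant (−4.31 ± 0.20, adjusted p = 8.2e-10), and *Hsp70Aa* at 6.62 to 20.9 and 136 to 235 TPM (3.78 ± 0.63, adjusted p = 0.00045), so the copies differed in opposite directions. *Hsp70Bc* was at 29.0 to 31.4 and 47.5 to 87.1 TPM (1.20 ± 0.18, adjusted p = 0.00017). Of 10 small heat shock genes, 3 were higher (30%, where 7.65% of all genes were) and none lower by limma, also at an unadjusted p under 0.05. The higher ones were *l(2)efl*, *CG4461* (0.90, adjusted p = 0.001) and *Hsp67Bc* (1.07, adjusted p = 0.002). The chaperone *Gp93* of the endoplasmic reticulum was at 146 to 193 and 219 to 293 TPM (0.55 ± 0.11, adjusted p = 0.0032), and did not pass in normoxia (adjusted p = 0.40, interaction 0.75, adjusted p = 0.026).

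Metal and toxin defenses differed in both directions. Of 7 metallothionein genes, which bind copper, zinc and cadmium, 4 were lower and none higher by limma, also at an unadjusted p under 0.05. The lower ones are 57.1% of the list, where 9.42% of all genes were lower and 7.65% higher by adjusted p alone. *MtnE* was at 281, 226, 207 and 364 TPM in w1118 and 77.3, 55.9, 79.9 and 54.5 TPM in the mutant (−1.98 ± 0.19, adjusted p = 3e-06). *MtnA*, the most abundant, was at 6027, 5566, 3282 and 4693 TPM against 2674, 2596, 2896 and 2189 TPM (−0.89 ± 0.19, adjusted p = 0.0032, but 0.15 after scaling and 7.1e-05 to 0.17 over all alternatives), and *MtnD* (−1.53) and *MtnB* (−2.30) were lower as well. All 4 mutant libraries lay below all controls in the first 3 of these genes. Glutathione S-transferases gave 7 of 34 higher and 7 lower (20.6% each, and 8 and 4 genes after scaling). *GstD1* was at 1744, 1419, 1589 and 1549 TPM in w1118 and 828, 636, 879 and 545 TPM in the mutant (−1.15 ± 0.19, adjusted p = 0.0005), a smaller difference than the −2.12 of normoxia, though not by the interaction test (adjusted p = 0.099). For *GstD3* that test passed (hypoxia −1.39, normoxia −2.40, adjusted p = 0.015). Among 63 cytochrome P450 genes, 9 were higher and 11 lower (14.3% and 17.5%, and 13 and 8 genes after scaling). *Cyp6a23* was at 7.29, 11.7, 4.76 and 11.8 TPM in w1118 and 128, 80.9, 89.2 and 107 TPM in the mutant (3.42 ± 0.30, adjusted p = 8.6e-07), and its neighbor *Cyp6a21* at 1.46 to 2.92 and 22.9 to 47.4 TPM (3.44 ± 0.28, adjusted p = 5.4e-07). *Sod3*, the extracellular superoxide dismutase, was lower (202 to 268 and 28.6 to 118 TPM, −1.54 ± 0.35, adjusted p = 0.0063), as was *glob1*, a globin (127 to 261 and 54.5 to 85.5 TPM, −1.33 ± 0.21, adjusted p = 0.00031). *Tsf1*, the iron carrier transferrin, was at 228, 201, 84.9 and 409 TPM in w1118 and 1452, 1318, 1422 and 685 TPM in the mutant (2.54 ± 0.43, adjusted p = 0.00053).

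Of 22 genes of the contractile apparatus of muscle, 9 were higher (40.9%, where 7.65% of all genes were) and none lower by limma, also at an unadjusted p under 0.05. After scaling 13 of these 22 genes were higher. Of 6 muscle marker genes, which overlap with these, 4 were higher. *Act79B*, an actin of tubular muscle, was at 25.5, 34.9, 24.9 and 31.7 TPM in w1118 and 69.2, 57.3, 69.0 and 71.7 TPM in the mutant (1.17 ± 0.14, adjusted p = 1.6e-05). *Prm*, paramyosin, was at 14.8, 25.9, 15.6 and 23.8 TPM against 65.4, 34.0, 52.3 and 53.7 TPM (1.32 ± 0.20, adjusted p = 0.00025), and *Mhc*, the myosin heavy chain, at 20.9, 42.9, 26.9 and 41.7 TPM against 63.2, 49.6, 56.9 and 67.4 TPM (0.87 ± 0.19, adjusted p = 0.0049). The groups of all 3 were separate, and each was also higher in normoxia (0.61, 0.86 and 0.89). None of 16 neuronal genes passed, and 1 was under an unadjusted p of 0.05 by limma. Of 16 photoreceptor genes none was higher and 2 were lower (12.5%, where 9.42% of all genes were), the channel gene *trpl* with the smaller p (−0.99, adjusted p = 0.0079).

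Cuticle proteins, which stiffen the body wall, gave 11 of 26 higher and 4 lower (11 and 2 after scaling), of 120 in the family. Many are made only at molts, and the other members were left out as under a mean of 1 TPM. *Edg91* was at 5.44, 5.01, 5.07 and 8.70 TPM in the 4 mutant libraries and at most 0.154 TPM in w1118 (2.67 ± 0.23, adjusted p = 7.7e-07), and differed more than in normoxia (0.692 and 1.82 TPM, interaction 2.0, adjusted p = 0.0042). *Cpr65Au* was at 81.7, 67.1, 64.4 and 71.8 TPM in w1118 and 191, 165, 125 and 91.0 TPM in the mutant (0.94 ± 0.21, adjusted p = 0.0048), with all mutant libraries above all controls. *Cpr57A* was at 25.8, 21.5, 25.2 and 17.4 TPM against 7.23, 10.3, 5.38 and 4.50 TPM (−1.62 ± 0.21, adjusted p = 4.8e-05), the reverse order, and both genes differed in the same direction in normoxia (0.88 and −1.02). Of 28 odorant-binding protein genes tested, which carry small hydrophobic molecules in and outside the sense organs, 2 were higher and 3 lower (7.14% and 10.7%, near the 7.65% and 9.42% of all genes, and 3 and 1 after scaling). *Obp18a* was at 19.6, 26.9, 10.6 and 26.6 TPM in w1118 and 48.7, 54.7, 47.2 and 42.9 TPM in the mutant (1.25 ± 0.26, adjusted p = 0.0027), and *Obp56d* at 683, 561, 348 and 411 TPM against 272, 272, 265 and 161 TPM (−1.03 ± 0.23, adjusted p = 0.0057, but 0.15 after scaling and 0.00051 to 0.16 over all alternatives). The groups of both genes were separate.

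Genes of growth control, cell signaling and the TCA cycle were set beside all genes, of which 7.65% were higher and 9.42% lower by adjusted p alone. Lower were 14.3% of TOR, 14.3% of Notch and 9.52% of autophagy genes, and higher were 18.2% of TCA cycle genes. Each of these shares rests on 2 genes. Of 14 TOR pathway genes 2 were lower, *Sesn* and *Nprl3*, a subunit of the complex that restrains TOR when amino acids are short (21.5, 27.1, 29.0 and 27.6 TPM in w1118 and 13.3, 9.29, 12.8 and 24.0 TPM in the mutant, −0.86 ± 0.22, adjusted p = 0.014), with mutant hypoxia 4 inside the range of the controls. Of 21 autophagy genes 2 were lower and none higher by limma, and 11 were lower at an unadjusted p under 0.05. *Atg4a*, a protease that processes Atg8, was at 41.2, 50.8, 48.1 and 60.4 TPM against 33.2, 24.4, 28.3 and 40.2 TPM (−0.66 ± 0.16, adjusted p = 0.0083), with no overlap. None of 15 Hippo pathway genes (0 higher and 1 lower at an unadjusted p under 0.05 by limma) and none of 15 JNK pathway genes (1 and 0) passed. Of 14 Notch pathway genes 2 were lower, among them the glycosyltransferase gene *fng* (−0.67 ± 0.20, adjusted p = 0.034, and 4.7e-05 to 0.25 over all alternatives). Of 11 genes of the TCA cycle 2 were higher and 5 after scaling, among them *kdn*, citrate synthase (43.7, 74.6, 57.6 and 68.3 TPM in w1118 and 94.9, 64.4, 103 and 111 TPM in the mutant, 0.60 ± 0.18, adjusted p = 0.033, and 1.6e-05 to 0.17 over all alternatives), with mutant hypoxia 2 inside the range of the controls.

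Of 84 cytosolic ribosomal protein genes tested, 6 were higher and 2 lower, a share of 7.14% higher that is near the 7.65% of all genes, and the median was 0.10. *RpL17* was among the higher ones (2637 to 3069 and 3098 to 4713 TPM, 0.50 ± 0.12, adjusted p = 0.0081). Without mutant hypoxia 4 and w1118 hypoxia 1, 27 were higher. Of 34 complex I genes 1 was higher, *ND-B12* (0.79, adjusted p = 0.0018), and none lower (5 and 0 at an unadjusted p under 0.05 by limma). Of 39 genes of complexes II to V, 2 were higher and 1 lower (5.13% and 2.56%). After scaling 5 genes of complex I and 8 of complexes II to V were higher and none lower. Of 32 proteasome genes 12 were lower (37.5%, where 9.42% of all genes were) and none higher (27 and 0 unadjusted). The median was −0.35 and the range −1.59 to −0.15. Among the lower ones were *Prosbeta4* (354 to 379 and 222 to 341 TPM, −0.48 ± 0.12, adjusted p = 0.011) and *Rpt2* (264 to 342 and 199 to 248 TPM, −0.42 ± 0.11, adjusted p = 0.016). After median-of-ratios scaling 1 of the 32 was lower, while without mutant hypoxia 4 and w1118 hypoxia 1 it was 28.

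The amount of RNA in a list was also followed as its share of all TPM in each library. Trypsins took 0.0963 ± 0.020% in w1118 and 0.393 ± 0.076% in the mutant (SD, n = 4 each), a ratio of 4.08. Yolk genes took 0.404 ± 0.13% and 1.01 ± 0.15%, and Jonah proteases 0.144 ± 0.032% and 0.268 ± 0.043%. Maltases and amylases were reversed at 0.134 ± 0.024% and 0.0742 ± 0.015%. In these 4 lists and in Hsp70 with Hsp68 (0.0600 ± 0.0070% and 0.0984 ± 0.019%) the groups did not overlap (exact permutation test, two-sided, p = 0.0286 each, the smallest possible, or 0.0686 when adjusted over 12 lists). No share passed when adjusted. With only these lists at the smallest possible p, an adjusted p under 0.05 over 12 lists could not be reached. The adjusted values therefore cannot decide whether these shares differ. Muscle (0.103 ± 0.027% and 0.140 ± 0.022%), the proteasome (0.878 ± 0.056% and 0.695 ± 0.098%) and ribosomal proteins (36.4 ± 3.7% and 39.6 ± 4.5%) overlapped (exact p = 0.0857, 0.0571 and 0.371). So did antimicrobial peptides, chorion, vitelline membrane and complex I genes (exact p = 0.4, 0.714, 0.943 and 0.143).

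**Figure D5:**
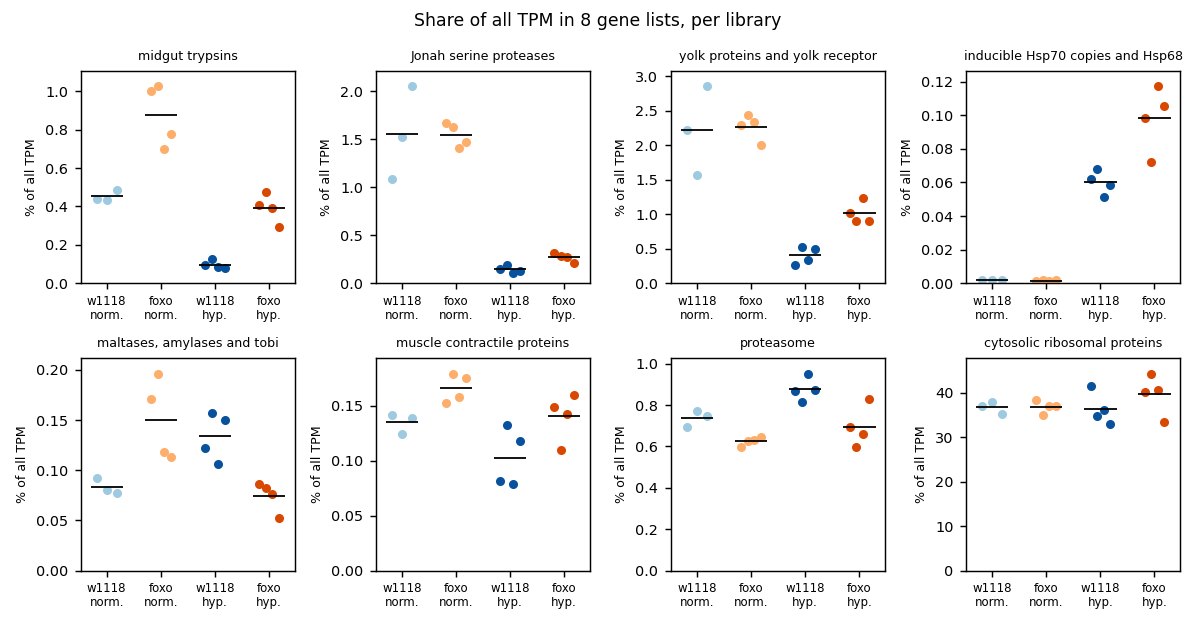
Share of all TPM (percent, axes from 0) taken by 8 gene lists in each library (points), with group means (bars), for w1118 and *foxo* mutants in normoxia (norm.) and hypoxia (hyp.). In hypoxia the genotypes are separate for trypsins, Jonah proteases, yolk, Hsp70 and maltases, and overlap for muscle, proteasome and ribosomal proteins.

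Some genes were near 0 in one genotype and well above it in the other. Under 0.5 TPM in one hypoxia group and over 5 TPM in the other were 20 called genes in the higher and 21 in the lower direction. *CG44142* was at 147, 192, 119 and 179 TPM in w1118 and listed at 0 in all 8 mutant libraries, normoxia included. *Ada1-1*, a subunit of the SAGA complex, was at 15.4 to 23.9 TPM in w1118 and likewise listed at 0 in the mutant. *CG18853* had 24.5 to 42.0 TPM in w1118 and at most 0.245 TPM in the mutant. In the other direction, the noncoding RNA *CR40469* was at 17.0, 7.96, 12 and 16.5 TPM in w1118 and 4032, 7963, 2589 and 2898 TPM in the mutant (8.15 ± 0.31, adjusted p = 6.6e-11), the largest difference of all genes tested. *CG32581* was listed at 0 in every w1118 library of both oxygen levels and at 19.2 to 41.5 TPM in the mutant, and *Cyp12d1-d* at 0 in w1118 and 9.2 to 61.5 TPM in the mutant in hypoxia. All 6 genes were called in normoxia as well. Further genes with separate groups and wide differences were *CG9360* (9.64 to 12.7 and 150 to 273 TPM), *CG3597* (2.71 to 3.73 and 44.7 to 108 TPM), *CG34211* (142 to 233 and 1.17 to 9.63 TPM), *CG12200* (30.8 to 44.4 and 0.295 to 0.842 TPM) and *Obp99a*, an odorant-binding protein (145 to 250 and 3.77 to 36.6 TPM). *CG12826* and *CG34040* were at 6.22 to 23.2 TPM in w1118 hypoxia and under 1 TPM in the other 3 group means. They were tested only because of that group, so their values are a description. *CG9505*, a metallopeptidase, was at 0.405 to 1.04 TPM in w1118 and 11.9 to 28.1 TPM in the mutant in hypoxia, while its normoxic levels were 6.87 and 10.4 TPM (interaction 3.22, adjusted p = 0.00013). Linker histone copies are also among the genes found in one genotype, but the 23 His1 copies are near identical and their sum overlapped (386 to 513 and 130 to 570 TPM, exact permutation p = 0.314).

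Of genes called with opposite signs at the 2 oxygen levels, *IM33*, a small immune-induced peptide, was at 1456, 1461, 970 and 1704 TPM in w1118 hypoxia and 893, 950, 733 and 625 TPM in the mutant (−0.79 ± 0.19, adjusted p = 0.0094, but 0.23 after scaling and 6.2e-05 to 0.25 over all alternatives), and higher in normoxia (0.90, adjusted p = 0.013). *CG1942*, a diacylglycerol acyltransferase, was higher in hypoxia (1.09, adjusted p = 0.011, and 2.9e-05 to 0.062 over all alternatives) and lower in normoxia (−1.28, adjusted p = 0.012), as was *GstD5* (0.70 and −1.08, adjusted p = 0.044 and 0.01). The hypoxia call of *GstD5* was lost under 12 of 21 alternatives (adjusted p 2.8e-05 to 0.20).

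Position on the chromosome was examined because a line can differ from its control around a mutated gene. The *foxo* gene lies on 3R at 14056945 to 14087978 (dm6, Ensembl annotation). None of 15 genes tested within 100000 bases of it was called in hypoxia by limma, and 2 were lower at an unadjusted p under 0.05. Within 500000 bases 4 of 85 were called higher and 12 lower (18.8%), against 14.2% of all genes, and 3.53% of the same genes were called in normoxia, against 7.98%. The nearest called genes were *CG31517* (−0.61, adjusted p = 0.0092, but 0.18 after scaling and 0.00013 to 0.22 over all alternatives), *CG9649* (1.33, adjusted p = 0.00055) and *CG31326* (1.12, adjusted p = 0.0067), 107203 to 130158 bases away. *CG44142* lies 743757 bases from *foxo*. Over the larger chromosome arms, the share of genes called ran from 12.9% on X to 15.1% on 2L.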

How the data were processed

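Whole-body RNA of 15 libraries was sequenced (the study calls them independent biological replicates), with 3 or 4 per genotype and oxygen level. The authors quantified transcripts with kallisto on dm6 and tested them with sleuth. Neither version is given in the sources used here. The authors deposited TPM values (transcript abundance relative to the library), which keep no read depth, so counting error is unknown. Deposited tables of genes changed by hypoxia hold the authors' own fold changes and p-values and were not used. TPM of 33973 transcripts (a further 138 had no value) were summed to 17031 genes by the deposited gene names, of which 5 were restored from dates. Library totals were 998679.4 to 999016.0 TPM.

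Genes with a mean of at least 1 TPM in a group (10288) were tested in limma (version 3.58.1, R 4.3.3; variance trend fitted) on log2(TPM + 1), in 1 model of the 4 groups. P-values were Benjamini-Hochberg adjusted over all these genes. A call needed an adjusted p below 0.05 together with a difference above 1.5-fold, while members of lists were counted by adjusted p alone. Shares of TPM were compared by exact permutation over libraries. The fit was tested on simulated data with independent noise per gene. That simulation held no shift shared by a whole library and so cannot speak for such shifts.

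The members and the 57 gene lists were chosen with earlier results of these data known. Genes described were those named in the study, the 15 largest separate calls per direction at 10 TPM or more, up to 4 per list (2 by p, 2 by level), genes near 0 in one genotype, the largest interactions, genes called at both oxygen levels, and those nearest *foxo*. *ImpL2*, *Ilp5*, *fit*, *LysP*, *LysX*, *MtnB*, *PGRP-SC1b*, *PGRP-SA*, *Hsp70Aa*, *Hsp67Bc*, *hgo*, *Faa*, *Hmg-2*, *CG6295*, *GstZ1* and the single marker genes were added after their values were seen. Alternatives were other pseudocounts, filters, scalings, covariates, weights and sample sets, replicate blocks and each library left out. The one without both libraries that stood apart was chosen after seeing the data. How a rule of 2-fold changes the counts was also computed.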

Additional observations from a re-analysis of the deposited data

Results flagged for a closer look

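In groups of 4 hypoxia libraries, 15 of 290 sets of values had 1 library far from the other 3, where chance gives about 1 in 20, or 14.5. In mutant hypoxia 3 these were *CG18853* at 0.245 TPM, *CecA2* at 16.5 TPM, *Dro* at 114 TPM, *LysE* at 51.1 TPM, *Sod3* at 28.6 TPM, which was the lowest of its group, and the chorion genes at 1.35% of all TPM. In mutant hypoxia 4 they were *Edg91* at 8.70 TPM, *GLaz* at 20.7 TPM, *ND-B12* at 862 TPM, *Obp56d* at 161 TPM, *Obp99a* at 36.6 TPM and *Tps1* at 415 TPM. The others were *fit* at 312 TPM in mutant hypoxia 1, *LysX* at 159 TPM in w1118 hypoxia 2 and *fbp* at 102 TPM in w1118 hypoxia 3.

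The genotype difference itself differed between hypoxia and normoxia, by limma at an adjusted p under 0.05, in 48 of the 133 genes described. Some of these genes were picked for their interaction, and the interaction of single genes was not followed over the alternatives. The values here are the log2 difference in hypoxia minus that in normoxia.

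More negative in hypoxia, among genes of sugar, lipid and amino acid use, were *Mal-A6* (−3.68), *Mal-A8* (−3.67), *Mal-B1* (−3.43), *Mal-B2* (−2.76), *CG10924* (−2.70), *fbp* (−1.53), *AcCoAS* (−1.53), *Men* (−1.36), *CG6283* (−3.02), *CG10621* (−4.13), *CG11796* (−3.27), *CG1461* (−2.92), *Hn* (−2.68), *Faa* (−1.06) and *Ddc* (−3.44). Among genes of signaling, stress and immunity these were *Thor* (−1.59), *Ilp6* (−1.51), *Hsp70Ba* (−3.95), *TotM* (−2.90), *Dro* (−1.96) and *IM33* (−1.69). *CG34040* (−3.61) and *CG12826* (−3.32) were the others, both of them tested only because of their level in w1118 hypoxia.

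More positive in hypoxia, among digestive genes, were *Jon66Ci* (3.62), *LysD* (2.46), *epsilonTry* (2.44), *Jon25Bii* (2.43), *Jon25Bi* (1.53) and *alphaTry* (1.16). Among genes of yolk, hemolymph and metabolism these were *Yp2* (2.02), *fon* (1.79), *Yp3* (1.15), *Hex-C* (1.26), *CG1942* (2.37) and b (1.21). In immunity, stress and detoxification they were *Mtk* (2.88), *TotX* (1.89), *SPE* (1.78), *PGRP-SA* (1.38), *l(2)efl* (1.39), *Hsp70Bc* (1.13), *Gp93* (0.75), *GstD5* (1.78) and *GstD3* (1.01). The cuticle gene *Edg91* (2.0), *CG9505* (3.22), *CG3597* (2.89) and *CG9360* (1.52) completed this set.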

How the results depend on the processing

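TPM keep no depth, so the counting error of low genes is unknown. In hypoxia the call of lower genes (755) was the most dependent on the processing. It was 449 after median-of-ratios and 437 after trimmed mean scaling, 449 at a pseudocount of 5, 481 with only the 8 hypoxia libraries, 2949 with array weights and 3731 without both libraries that stood apart. Higher genes (711) numbered 459 at a pseudocount of 5, and a 2-fold rule gave 436 higher and 360 lower. In normoxia array weights gave 867 higher and 509 lower genes (529 and 292 as reported), the 7 normoxia libraries alone 836 higher and the length slope 566 lower. The interaction (110 higher, 159 lower) gave 888 and 5059 with array weights, 299 and 3084 without both libraries, 174 higher with the length slope, and 87 and 104 lower with a filter of 5 TPM and trimmed mean scaling. Leaving out 1 library at a time gave 573 to 803 higher and 590 to 2103 lower genes in hypoxia, 298 to 500 and 207 to 269 in normoxia, and 57 to 152 and 94 to 235 for the interaction.

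Of lists, muscle genes higher (9) were 4 with only the hypoxia libraries, 14 after trimmed mean scaling and 5 to 10 with 1 library left out (5 without mutant hypoxia 1 or w1118 hypoxia 3). Peptidoglycan recognition genes higher (4) were 8 with array weights, 7 without both libraries and 4 to 7 with 1 left out (7 without mutant hypoxia 4). Proteasome genes lower (12) were 29 with array weights, 28 without both libraries, 7 with a total that left out ribosomal, eggshell and yolk genes, 1 after either scaling or with only the hypoxia libraries, and 1 to 27 with 1 left out (1 without w1118 hypoxia 3, 27 without mutant hypoxia 4). Ribosomal protein genes higher (6) were 49 with array weights, 27 without both libraries, 10 with the length slope, 3 after trimmed mean scaling, 0 with only the hypoxia libraries, and 3 to 16 with 1 left out (16 without mutant hypoxia 4). The cause of these changes was not tested. Shares of TPM differed after median-of-ratios scaling by 0.165 points for Jonah proteases, 0.0515 for chorion, 10.4 for ribosomal proteins, −0.0366 for maltases, −0.0565 for the proteasome, 0.275 for complex I and 0.0015 for vitelline membrane genes, against 0.124, −0.104, 3.21, −0.0597, −0.183, 0.111 and −0.0002 as reported. With 1 library left out the chorion share differed by −0.325 to −0.015 and the vitelline share by −0.0047 to 0.0026.

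Of the genes described, 55 of 62 called higher and 42 of 59 called lower were called so under each of the 21 alternatives. *Mtk*, which did not pass as reported, turned from −0.46 to 0.12 with array weights. Of genes that passed as reported, *Men*, *AttB*, *GstD5*, *fbp*, *Hmg-2*, *kdn*, *Rel* and *fng* failed under 7 or more of them.

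Replicate numbers were not used as pairs in the comparison as reported, and the correlations do not settle whether they mark pairs. Deviations of same-numbered w1118 and mutant libraries in hypoxia correlated at 0.293, 0.048, −0.216 and 0.347 across genes. Those of different numbers correlated at −0.483 to 0.327. Between the oxygen levels, same-numbered libraries of w1118 correlated at 0.142, 0.374 and 0.177 (numbers 2 to 4), and others at −0.284 to 0.161. Same-numbered libraries of the mutant correlated at 0.2, −0.071, 0.139 and 0.331 (numbers 1 to 4), and others at −0.569 to 0.395. With the number as a replicate block 729 genes were higher and 789 lower, and 3 ribosomal protein genes were higher. In the block with only the hypoxia libraries 546 genes were higher and 480 lower, with 1 proteasome and 0 ribosomal protein genes.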
